A study of Mus musculus with 16 samples.

Results

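The BCL2 family genes that set the survival of mouse CD8+ T cells were compared between cells that had received a control guide RNA and cells in which Tardbp had been targeted. The 10 genes Bcl2, Bcl2l1, Mcl1, Bcl2a1b, Bcl2a1d, Bak1, Bcl2l11, Bid, Bad and Bmf were found by their GENCODE M21 symbol in the deposited gene and transcript tables, as 10 of 55536 annotated genes. All 10 passed the filter on low counts, and 16650 genes in all were tested. OT-I cells, which carry a transgenic T cell receptor for the ovalbumin peptide SIINFEKL, came from donors on a C57BL/6J background that also lacked Rag1 or Rag2 according to the methods. For the mice of the study, the methods state a wider range of ages, up to adults of several months, than the reporting summary. The OT-I cells were electroporated with the nuclease Cas9 and either a scrambled guide (Control gRNA) or one that targets Tardbp (Tardbp gRNA), which leaves a mixed pool of cells and not a clone, and were transferred into C57BL/6J mice of either sex. Recipients of both groups received SIINFEKL together with antibodies that trigger OX40 and 4-1BB, costimulatory receptors of T cells, and donor CD8+ T cells were sorted from spleen and lymph nodes after 4 days as labelled (the methods state a slightly shorter time). The study's text also names a stimulation of the purified cells beside the RNA-seq, and whether the sequenced cells had received it was unclear. Single recipients gave 8 libraries per group. Whether the cells of a group shared a donor pool or an electroporation was not given, and p-values then measure the spread between recipients.

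BCL2 proteins decide whether the outer membrane of the mitochondrion is opened, the step that releases cytochrome c and starts the caspases. Pro-survival members (BCL-2, BCL-XL, MCL-1 and A1) hold the effectors BAX and BAK in check, and BH3-only members (BIM, BID, BAD, BMF, PUMA, NOXA) are sensors of stress that bind the pro-survival proteins or, for some of them, activate the effectors. In T cells, BIM is known for the removal of activated cells when a response contracts, and BCL-2 and MCL-1 for keeping naive and memory cells alive.

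The BH3 core is the short stretch by which the pro-apoptotic members bind the groove of the pro-survival ones. The coding sequences of the 5 pro-apoptotic genes at this site are shown because they carry what these genes share, with the codon of the conserved leucine and the codons of the small residue and the aspartate after it in capitals. They were read from the GENCODE M21 transcripts (GRCm38), each in a coding exon, and a search of each whole coding sequence for a leucine, any 3 residues, a glycine, alanine or serine and an aspartate found 1 match per gene.
Bcl2l11, chr2:128147144-128147173, plus strand, exon 3 of 4 of Bcl2l11-205: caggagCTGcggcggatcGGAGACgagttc
Bmf, chr2:118545103-118545132, minus strand, exon 4 of 5 of Bmf-201: agaaagCTTcagtgtattGCAGACcagttc
Bid, chr6:120897292-120897321, minus strand, exon 4 of 6 of Bid-201: agacatCTCgcccaaataGGCGATgagatg
Bad, chr19:6950786-6950815, plus strand, exon 3 of 4 of Bad-201: cgtgagCTCcgaaggatgAGCGATgagttt
Bak1, chr17:27022534-27022563, minus strand, exon 4 of 6 of Bak1-202: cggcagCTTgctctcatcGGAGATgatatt

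The libraries held 29714709 to 48164083 read pairs and 56016533 to 94801105 estimated counts in annotated genes. Tardbp itself ranged from 171.8 to 206.9 CPM (counts scaled to 1000000 of the TMM-adjusted library total) in Control gRNA and from 110.4 to 147.2 CPM in Tardbp gRNA, with no overlap. The RNA concentration recorded before dilution lay between 34.9 and 197.1 in Control gRNA and between 10.1 and 24.0 in Tardbp gRNA (no unit in the header, exact two-sided permutation p = 0.000155, the smallest that 8 against 8 libraries allow), so that RNA yield and guide cannot be told apart. All 9 CD8 T cell markers were called higher in Tardbp gRNA, against 23.5% of all tested genes. Their summed level was 7948 to 9384 CPM in Control gRNA and 10671 to 13743 CPM in Tardbp gRNA. The 10 myeloid markers summed to 24.3 to 45.7 CPM and 31.6 to 91.4 CPM, with 3 of 7 tested called higher, and Cd14 and Ly6g at most at 0.826 and 0.243 CPM. The 6 red cell markers summed to 0.442 to 17.4 CPM and 9.02 to 181.5 CPM, with all 4 tested called higher. The 8 B cell markers summed to 406.7 to 484.8 CPM and 571.7 to 739.4 CPM, most of it Ighm, with 2 of 7 tested called higher and Pax5 at most at 0.0259 CPM. Of the tested markers of CD4 T cells, dendritic cells and NK cells, 1 of 4, 0 of 3 and 0 of 2 were called in the edgeR test. For the 10 genes and their transcripts, results without the 3 libraries highest in myeloid markers (Tardbp gRNA replicates 1, 4 and 6) are given in some cases. These are the cases where leaving them out ends a call or moves the A1 genes. For the lists of other apoptosis genes only the count of called genes is given without these 3 libraries, and single calls may be lost. Otherwise the part of these shifts in the results was not tested.

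To ask how the survival genes differ between the guides, each was tested with edgeR's quasi-likelihood test in a fit of all genes. Of the 10 genes, 7 were called at an adjusted p under 0.05, against 46.7% of all tested genes. Of these, 6 were higher in Tardbp gRNA (Bcl2l11, Bmf, Mcl1, Bcl2, Bad and Bcl2a1b, against 23.5% of all genes) and 1, Bid, was lower (23.3% of all genes). Bcl2l1, Bcl2a1d and Bak1 were not called. With a log2 fold change over 0.5 in size required as well, 4 of the 10 passed (Bcl2, Mcl1, Bcl2l11 and Bmf), against 20.2% of all genes. The median log2 fold change of the 10 was 0.45, and that of all tested genes was 0.05. That of the 9 CD8 T cell markers was 0.51. The 2 groups of libraries did not overlap for 3 of the 10 (Bcl2, Bcl2l11 and Bad), all higher in Tardbp gRNA, where 16.9% of all tested genes did not overlap and 6.61% were higher without overlap. In bulk RNA, a change in the make-up of the sorted cells and a change of RNA per cell cannot be told apart.

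**Figure D1:**
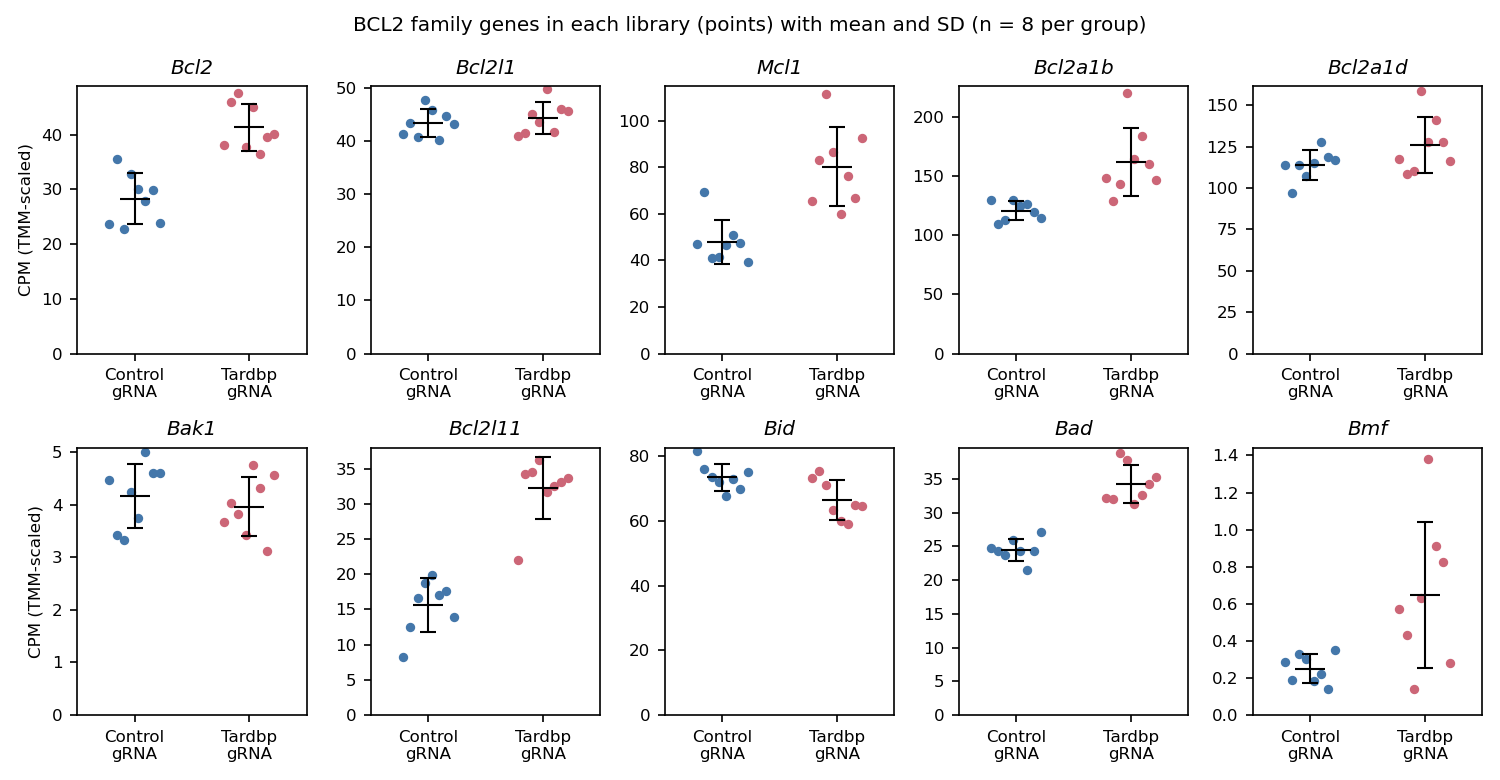
CPM of each of the 10 genes (vertical axis, from 0, a scale of its own per gene) in the 8 Control gRNA and 8 Tardbp gRNA libraries (points), with the mean and SD of each group. Bcl2, Bcl2l11 and Bad have no overlap between groups, with Bcl2l11 at 8.29 to 19.9 CPM against 22.1 to 36.2 CPM, while the points of Bcl2l1 lie at one height.

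Among the pro-survival genes, Bcl2 and Mcl1 rose and Bcl2l1 was not called. Bcl2 (ENSMUSG00000057329.7, chr1:106538178-106714274, minus strand), whose protein guards naive and memory T cells, had 22.8 CPM in the lowest, 28.9 in the median and 35.6 in the highest Control gRNA library. In Tardbp gRNA the values were 36.4, 39.9 and 47.7 CPM. Every Tardbp gRNA library lay above every Control gRNA library, with a mean of 41.3 ± 4.29 CPM against 28.3 ± 4.67 CPM (SD, n = 8 each), a log2 fold change of 0.54 (SE 0.094, adjusted p 0.000106).

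Mcl1 (ENSMUSG00000038612.16, chr3:95658788-95663176, plus strand) encodes a pro-survival protein of short half-life that lymphocytes need throughout. It spanned 39.3 to 69.2 CPM in Control gRNA, with a median of 46.8, and 59.8 to 111.2 CPM in Tardbp gRNA, with a median of 79.6. The groups overlapped, with 5 of 8 Tardbp gRNA libraries above the highest Control gRNA library, replicate 2, which stood apart from the other Control gRNA libraries (at most 50.9 CPM). The log2 fold change was 0.74 (SE 0.128, adjusted p 0.000113), or 1.67-fold with a 95% interval from 1.39 to 2.02.

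Bcl2l1 (ENSMUSG00000007659.18, chr2:152780668-152831728, minus strand), which encodes BCL-XL, a protein that activation and costimulation are known to induce, had 40.2 to 47.8 CPM (median 43.4) in Control gRNA and 41.0 to 49.95 CPM (median 44.4) in Tardbp gRNA. The ranges nearly coincided, and the log2 fold change of 0.03 (SE 0.052, adjusted p 0.665) was below 0 in 4 of 28 alternative fits, among them those without Tardbp gRNA replicate 5, 7 or 8. The 95% interval ran from 0.947-fold to 1.10-fold, so that the precision allows a change of about that size in either direction.

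The A1 genes, which encode small NF-kB-induced pro-survival proteins, are near copies of each other, and their counts must be read together. The coding sequences of Bcl2a1a, Bcl2a1b and Bcl2a1d have the same length of 516 bases. Bcl2a1b and Bcl2a1d differ at 6 of them (98.8% identity), with an unbroken identical run of 217 bases, and Bcl2a1a differs from Bcl2a1b at 11 (97.9%) and from Bcl2a1d at 7 (98.6%). Since reads were 100 bases long, many pairs could come from either copy, and how the authors' counting shared them is uncertain. The first 90 coding bases, which hold the most positions that differ between the copies (6, in capitals), are shown from GENCODE M21.
Bcl2a1a, chr9:88957051-88957140, plus strand: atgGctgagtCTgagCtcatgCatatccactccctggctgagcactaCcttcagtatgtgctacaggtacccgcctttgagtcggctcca
Bcl2a1b, chr9:89199360-89199449, plus strand: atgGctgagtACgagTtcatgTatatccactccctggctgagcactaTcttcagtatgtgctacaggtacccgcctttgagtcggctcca
Bcl2a1d, chr9:88731630-88731719, minus strand: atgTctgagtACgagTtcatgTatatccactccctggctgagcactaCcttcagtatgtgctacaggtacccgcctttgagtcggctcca

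Bcl2a1b (ENSMUSG00000089929.1, chr9:89199209-89207827, plus strand) had 109.5 to 130.0 CPM (median 122.0) in Control gRNA and 129.4 to 220.8 CPM (median 154.2) in Tardbp gRNA. It was the only A1 member of the 10 to be called, with 7 of 8 Tardbp gRNA libraries above all Control gRNA libraries and a log2 fold change of 0.42 (SE 0.085, adjusted p 0.000503). Bcl2a1d (ENSMUSG00000099974.1, chr9:88723285-88731914, minus strand) had 97.2 to 128.0 CPM and 108.6 to 158.5 CPM, a log2 fold change of 0.15 (SE 0.073, adjusted p 0.110), and the groups overlapped. With the 4 A1 rows added to 1 row before the fit, the level was 260.9 CPM in Control gRNA and 320.1 CPM in Tardbp gRNA, a log2 fold change of 0.30 (SE 0.078, adjusted p 0.00450).

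The highest Bcl2a1b levels were those of Tardbp gRNA replicates 4 (220.8 CPM) and 6 (184.2 CPM), which were also 2 of the 3 libraries highest in myeloid markers (76.4 and 91.4 CPM). The third, replicate 1, with 82.1 CPM of myeloid markers, had 148.3 CPM of Bcl2a1b. A1 is also known from myeloid cells. Without these 3 libraries the log2 fold change was 0.28 for Bcl2a1b (adjusted p 0.00183) and 0.03 for Bcl2a1d (adjusted p 0.707). The predicted coding gene Gm29094 shares 401 of the 817 bases of Bcl2a1b on the same strand, had a mean of 402.3 counts and was not called.

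Of the effectors, Bak1 (ENSMUSG00000057789.14, chr17:27019810-27029009, minus strand), which encodes the pore-forming BAK, was not called. It had 3.32 to 4.995 CPM (median 4.36) in Control gRNA and 3.13 to 4.75 CPM (median 3.92) in Tardbp gRNA. No Tardbp gRNA library lay above the Control gRNA range, and the log2 fold change was -0.08 (SE 0.111, adjusted p 0.605), with an interval from 0.806-fold to 1.12-fold. At 242 to 455 counts per library, and with 437 and 177 of the 2387 bases of its transcript Bak1-202 shared with 2 entries named Ggnbp1 on the other strand (log2 fold changes 0.46 and -0.52, neither called) in a kit that does not mark strand, this level is less certain than those of the genes above.

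The BH3-only gene Bcl2l11 showed the largest change among those of the 10 genes with more than 1 CPM. Bcl2l11 (ENSMUSG00000027381.16, chr2:128126038-128162547, plus strand), which encodes BIM, had 8.29 CPM in the lowest, 16.8 in the median and 19.9 in the highest Control gRNA library, and 22.1, 33.4 and 36.2 CPM in Tardbp gRNA. Every Tardbp gRNA library lay above every Control gRNA library, although replicate 1 of each group was the lowest of its group. The log2 fold change was 1.05 (SE 0.144, adjusted p 9.93e-06), or 2.07-fold with a 95% interval from 1.68 to 2.55.

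Bad (ENSMUSG00000024959.14, chr19:6941861-6951899, plus strand) encodes a BH3-only protein that growth factor signals keep phosphorylated and out of action. It had 21.5 to 27.1 CPM (median 24.4) in Control gRNA and 31.2 to 38.8 CPM (median 33.4) in Tardbp gRNA, with no overlap. The log2 fold change of 0.48 (SE 0.059) had the smallest adjusted p of the 10 genes, 2.70e-06, since the libraries of each group lay close together. Gpr137 on the opposite strand shares 524 of the 2558 exonic bases of Bad, and its own log2 fold change was 0.70 (adjusted p 2.61e-05). Of the transcripts of Bad, 517 of the 1452 bases of Bad-201 lie in the shared bases and none of Bad-202 or Bad-208, and the log2 fold changes were 0.10, 0.44 and 0.74 in that order, none of them called.

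Bmf (ENSMUSG00000040093.15, chr2:118528757-118549687, minus strand), a BH3-only gene tied in its protein to the cytoskeleton, was barely detected. Its 11 to 86 counts per library gave 0.141 to 0.350 CPM (median 0.252) in Control gRNA and 0.138 to 1.38 CPM (median 0.600) in Tardbp gRNA. In Tardbp gRNA, 6 libraries lay above all Control gRNA libraries and 1, replicate 3, below all of them. The log2 fold change of 1.36 had the widest interval of the 10 genes (SE 0.377, adjusted p 0.00614, from 1.49-fold to 4.46-fold).

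Bid (ENSMUSG00000004446.12, chr6:120891930-120916853, minus strand) encodes the BH3-only protein that links death receptors to the mitochondrion. It was the only gene of the 10 to be called lower, with 67.6 to 81.6 CPM (median 73.2) in Control gRNA and 59.0 to 75.3 CPM (median 64.9) in Tardbp gRNA. In Tardbp gRNA, 5 of 8 libraries lay below the Control gRNA range, and the log2 fold change was small (-0.15, SE 0.056, adjusted p 0.0417). The call was lost in 10 of 28 alternative fits, with adjusted p from 0.0071 to 0.528 over all of them, among them those without Control gRNA replicate 1 (0.0616), 2 (0.0653), 3 (0.0570) or 6 (0.0554) and the one without the 3 libraries highest in myeloid markers (0.0698).

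**Figure D2:**
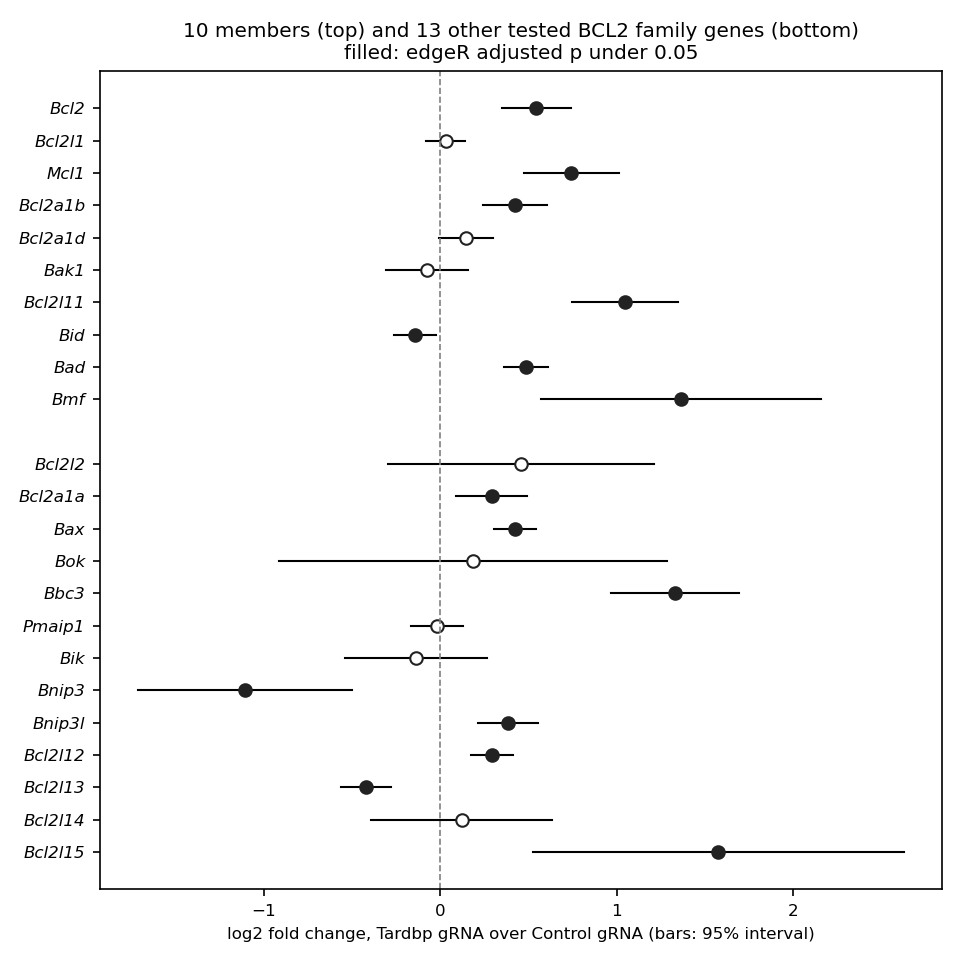
Log2 fold change of Tardbp gRNA over Control gRNA (horizontal axis) with its 95% interval for the 10 genes and the 13 other BCL2 family genes that were tested, with filled points for an adjusted p under 0.05. Bcl2l11 at 1.05 and Bbc3 at 1.33 lie far from 0, and the intervals of Bmf and Bcl2l15 are wide.

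The calls were next set against the ways in which the libraries could be divided. Bad kept its call in all 28 alternative fits, with log2 fold changes from 0.44 to 0.55. Bcl2, Mcl1 and Bcl2a1b lost it only within the libraries numbered 1 to 3 (log2 fold changes 0.65, 0.69 and 0.23, adjusted p 0.0705, 0.107 and 0.192). These libraries are 3 per group, and that fit called 1696 of 16871 tested genes. Their deposited letters (M or F) were M, F and F in Control gRNA and M throughout in Tardbp gRNA, so that letter and guide are partly mixed there. With log2 RNA concentration added to the fit, which then called 2697 genes in all, 4 of the 10 genes were called (Bad, Bcl2, Mcl1 and Bcl2a1b), and Bcl2l11 had a log2 fold change of 0.82 with an adjusted p of 0.0943. The same fit gave 0.45 for Bmf (adjusted p 0.754) and -0.15 for Bid (adjusted p 0.430). Bmf also lost its call within numbers 1 to 3 (0.48, adjusted p 0.687) and with the replicate block (1.19, adjusted p 0.0596).

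**Figure D3:**
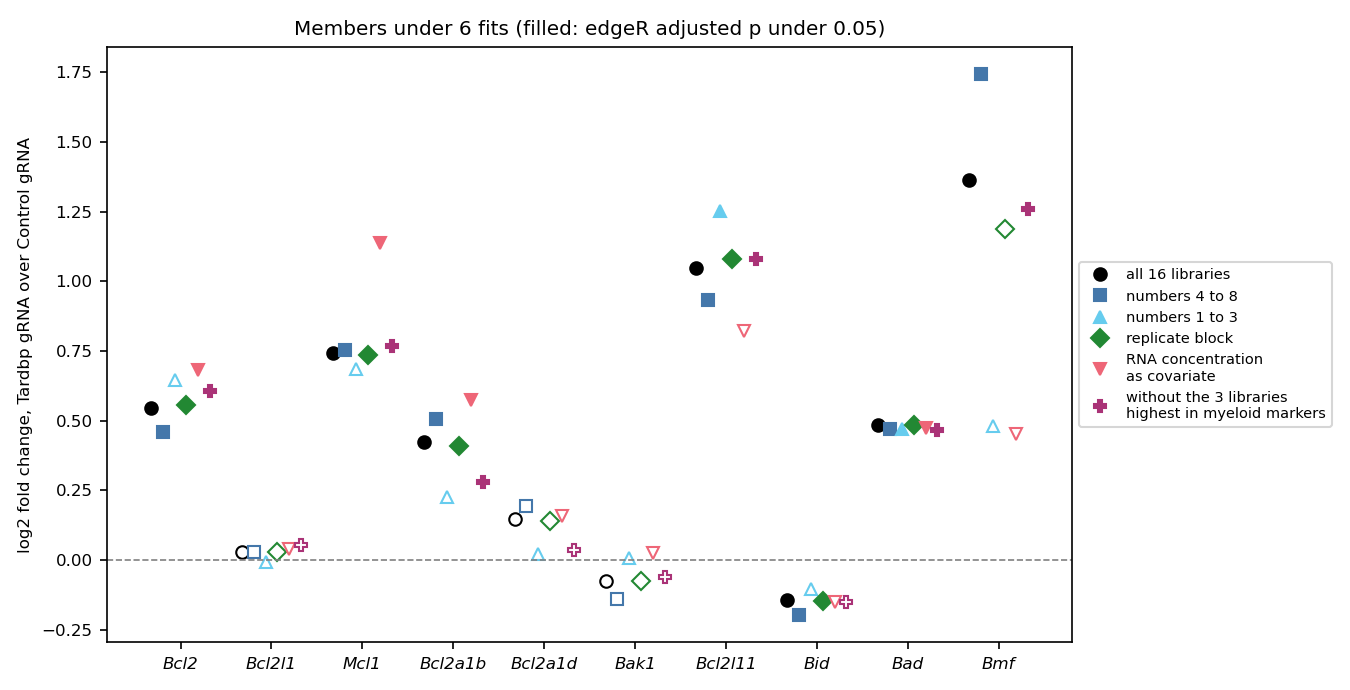
Log2 fold change of each gene (vertical axis) under 6 fits, marked by shape and colour, with filled symbols for an adjusted p under 0.05. The 6 symbols of Bad lie together near 0.48, those of Bcl2l11 between 0.82 and 1.25, and those of Bmf between 0.45 and 1.74.

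To compare levels between genes, transcript counts were divided by transcript length and scaled to a sum of 1000000 per library (TPM). In Control gRNA the A1 genes had the highest per-length levels, with medians of 246.4 TPM for Bcl2a1b and 219.6 TPM for Bcl2a1d, whose ranges overlapped. Bid (55.9 TPM), Bad (31.6), Bcl2l1 (29.3) and Mcl1 (22.0) followed, of which Bad and Bcl2l1, and Bcl2l1 and Mcl1, overlapped in range. Bcl2 (7.60 TPM) and Bcl2l11 (6.91 TPM) overlapped as well, above Bak1 (2.93 TPM) and Bmf (0.0898 TPM).

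In Tardbp gRNA the per-length order changed at 2 places, both between neighbours with overlapping ranges. Mcl1 (36.7 TPM) moved ahead of Bcl2l1 (28.1 TPM), and Bcl2l11 (12.2 TPM) ahead of Bcl2 (11.0 TPM). On this scale Bad and Bcl2l11 still had no overlap between the groups, while Bcl2 had 7 of 8 Tardbp gRNA libraries above the Control gRNA range. The ratio of the per-length levels of Bcl2l11 and Bcl2l1 went from a median of 0.239 (0.139 to 0.266) to 0.426 (0.304 to 0.509), without overlap. The ratio of Bcl2l11 to Bcl2 went from 0.907 (0.468 to 1.03) to 1.05 (0.757 to 1.29), and that of Bcl2l11 to Mcl1 from 0.304 (0.143 to 0.398) to 0.337 (0.239 to 0.428), both with overlap. The 5 pro-survival genes together made up a median of 84.2% of the summed per-length level of the 10 genes in Control gRNA and 85.2% in Tardbp gRNA, and the 4 BH3-only genes 15.4% and 14.5%, with overlapping ranges. Bcl2a1b and Bcl2a1d alone made up 75.0% and 75.2% of this sum. Bax, which is not among the 10 and not in the sum, had medians of 253.7 and 323.3 TPM. These shares and ratios are given as descriptions.

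**Figure D4:**
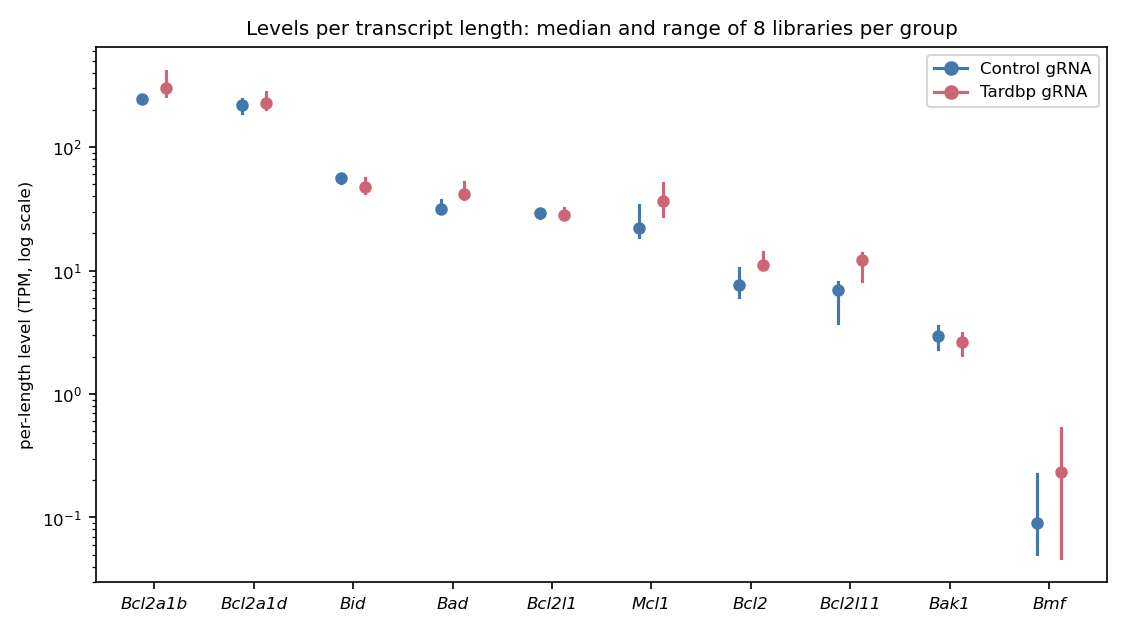
Per-length level in TPM (vertical axis, log scale) of the 10 genes, ordered by their Control gRNA median, with points for the median and lines for the range of the 8 libraries of each group. The A1 genes lie at medians of 219.6 to 300.9 TPM and Bmf below 1 TPM, and the lines of the 2 groups are apart for Bad and Bcl2l11.

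The transcripts of the genes were then examined, since TDP-43, the product of Tardbp, is a splicing regulator. Of 49 annotated transcripts, 24 passed the filter and 8 were called (33.3% of those kept, against 16.6% of all tested transcripts), with 7 higher and 1, Bid-201, lower. For Bcl2, 2 coding transcripts were kept. Bcl2-201, the 2-exon form that codes for the full protein (708 coding bases), had 19.2 to 30.2 CPM in Control gRNA and 28.3 to 37.6 CPM in Tardbp gRNA, a log2 fold change of 0.38 (SE 0.101, adjusted p 0.0145).

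Bcl2-202, a single-exon form that reads on from the first coding exon into the intron (597 coding bases), had 2.11 to 5.72 CPM and 6.59 to 10.6 CPM, without overlap, a log2 fold change of 1.14 (SE 0.189, adjusted p 0.000488). Its share of the Bcl2 count went from 12.2 ± 3.07% to 18.9 ± 2.53% (SD, n = 8 each), a difference of 6.74 percentage points (limma adjusted p 0.0112) that was under the 10 points required for a call. Of the 19 transcripts of 5 genes that entered the share test, 0 were called with limma and 3 had an adjusted p under 0.05 without the minimum difference, against 0.635% and 4.42% of all 32777 transcripts. The other one beside the Bcl2 pair was Bcl2l11-206, a non-coding form whose share was 1.70 ± 0.876% and 0.297 ± 0.274%.

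For Bcl2l11, the 2 leading transcripts code for BIM-EL (Bcl2l11-205, 588 coding bases) and BIM-L (Bcl2l11-203, 420 coding bases). Their coding sequences differ by a stretch of 168 bases at chr2:128128757-128128924 (GRCm38, plus strand, in exon 2 of 4 of Bcl2l11-205). This stretch begins with GT and ends with AG and is removed as an intron in BIM-L. It is shown from GENCODE M21, with these end bases in capitals, because reads across it separate the 2 forms.
Bcl2l11 segment of 168 bases: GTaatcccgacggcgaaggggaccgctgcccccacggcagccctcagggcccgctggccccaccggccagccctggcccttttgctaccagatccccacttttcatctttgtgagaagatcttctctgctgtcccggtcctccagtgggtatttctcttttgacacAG
Bcl2l11-205 had 3.65 to 16.4 CPM in Control gRNA and 17.4 to 27.7 CPM in Tardbp gRNA, without overlap, and a log2 fold change of 1.02 (SE 0.215, adjusted p 0.00337). Bcl2l11-203 had 0.925 to 7.09 CPM and 3.82 to 9.10 CPM, a log2 fold change of 1.10 (SE 0.355, adjusted p 0.0427). The call of Bcl2l11-203 was lost in all 5 alternative fits (adjusted p 0.0502 to 0.0975, the highest without the 3 libraries highest in myeloid markers), while that of Bcl2l11-205 was kept in all 5. Bcl2l11-205 held 71.3 ± 15.9% of the Bcl2l11 count in Control gRNA and 73.5 ± 5.91% in Tardbp gRNA (SD, n = 8 each, limma adjusted p of the difference 0.910). The 2 transcripts also start and end at different places (chr2:128126039-128162547 for Bcl2l11-205 and chr2:128126050-128161228 for Bcl2l11-203). Their counts and shares therefore mix the choice of BIM-EL or BIM-L with the choice of end. The authors' Psi (percent spliced in, the fraction of reads that include a stretch, 1 value per group) for the segment itself was 0.565 in Control gRNA and 0.544 in Tardbp gRNA.

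**Figure D5:**
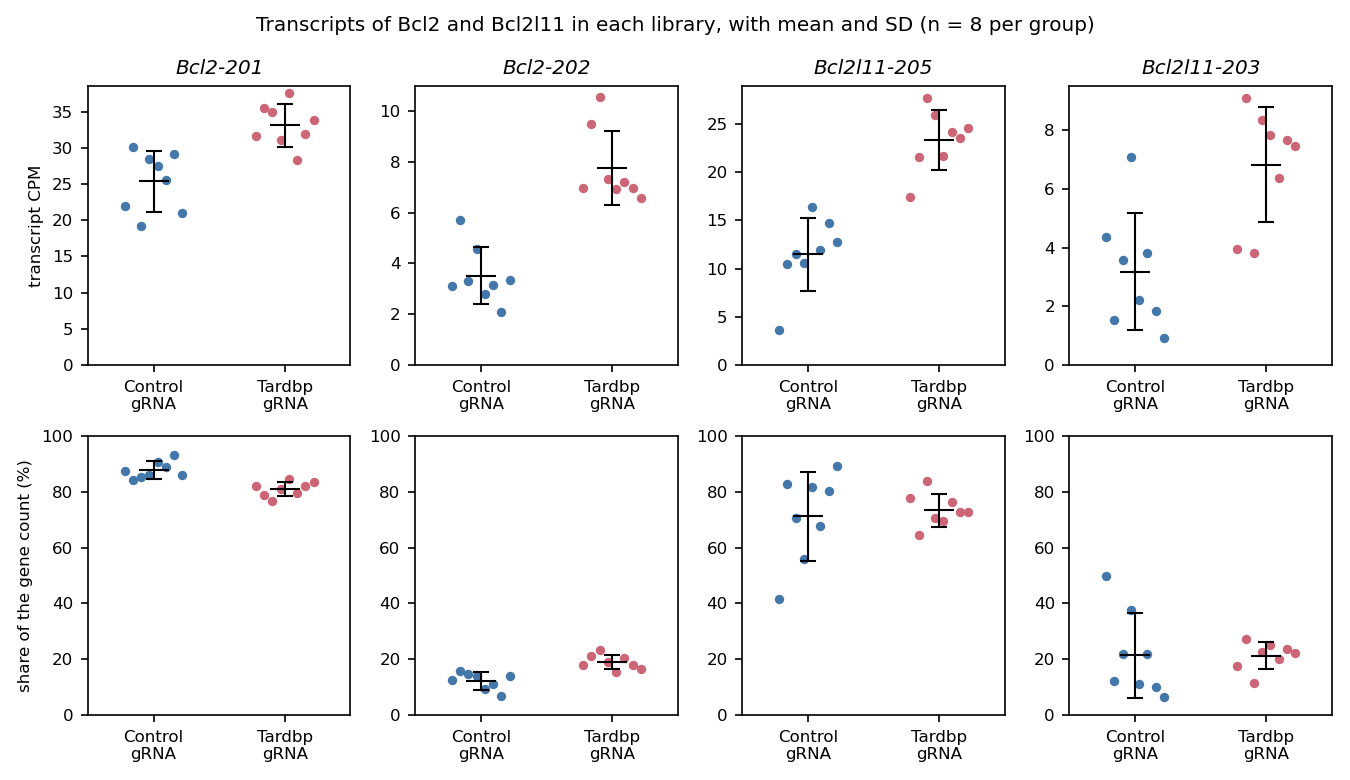
CPM (upper row) and share of the gene count in percent (lower row) of Bcl2-201, Bcl2-202, Bcl2l11-205 and Bcl2l11-203 in each library (points), with mean and SD of the 8 libraries per group. Bcl2-202 lies at 2.11 to 5.72 CPM against 6.59 to 10.6 CPM, while the shares of the Bcl2l11 forms scatter widely in Control gRNA, from 6.49 to 49.7% for Bcl2l11-203.

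The leading transcripts of the other genes were called for Mcl1, Bcl2a1b, Bid and Bmf and not for Bcl2l1, Bcl2a1d, Bak1 and Bad. Mcl1-201, at 100% of the Mcl1 count, had a log2 fold change of 0.70 (SE 0.135, adjusted p 0.00177), and Bcl2a1b-201 had 0.38 (SE 0.097, adjusted p 0.0123). Bcl2l1-201 and Bcl2l1-202, which code for the same 699 bases and have different first exons, ranged from 14.8 to 82.4% and from 16.3 to 82.0% of the Bcl2l1 count in single libraries. Neither was called, with log2 fold changes of 0.18 (SE 0.307, adjusted p 0.765) and -0.20 (SE 0.268, adjusted p 0.6995). Bid-201, with 99.7% of the Bid count in Control gRNA, had -0.19 (SE 0.063, adjusted p 0.0489), a call lost with no filter on low counts (adjusted p 0.109) and without the 3 libraries highest in myeloid markers (adjusted p 0.104). Bid overlaps Bcl2l13 on the other strand over 628 of its 3550 exonic bases, but Bid-201 shares 0 of its 2189 bases with it. Bmf-201 had 1.35 (SE 0.375, adjusted p 0.0201), lost with the replicate block (adjusted p 0.157) and without these 3 libraries (adjusted p 0.104). Bak1-202 had -0.03 (SE 0.152, adjusted p 0.936) and Bcl2a1d-201 had 0.10 (SE 0.084, adjusted p 0.471). Bad-208, with the highest mean share of the Bad transcripts, held 29.9 ± 10.8% and 36.7 ± 7.54% of the Bad count (SD, n = 8 each), with an adjusted p of 0.0501 for its own level.

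Psi was listed for 46 nodes (stretches of exon, as Whippet divides a gene) of 8 of the genes and none of the A1 genes. These are 1 value per group, so they carry no error and no test, and which column belongs to which group was taken from the file's naming and the study's text. The difference passed 0.1 in size for 5 of the 46 nodes, in Bcl2l11 and Bad. The share of nodes past 0.1 over all genes was not counted, so this count has no background beside it. Tandem starts or ends of 1 gene are alternatives to each other, so that their differences are not separate events. In Bcl2l11 the last exon ends at several places, and Psi of its outermost stretch (node 15, tandem end, chr2:128161229-128162547) was 0.380 in Control gRNA and 0.561 in Tardbp gRNA. The stretch before it (node 14, chr2:128160962-128161228) went from 0.187 to 0.0665. In Bad, Psi of the outermost start (node 1, tandem start, chr19:6941861-6942322) was 0.228 and 0.396, and that of the next (node 2, chr19:6942323-6942440) 0.772 and 0.605, but 399 of the 462 bases of the first and all 118 of the second lie in exons of Gpr137 on the other strand. A tandem end of Bad (node 7, chr19:6951642-6951892) went from 0.631 to 0.765. Nodes 8 and 9, tandem ends of 1 and 5 bases that directly follow it, went from 0.280 to 0.182 and from 0.0973 to 0.0590. These ends thus lie only a few bases apart.

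In the other genes with nodes, the node that differed most was a first exon of Bcl2l1 (node 3, 0.0776 and 0.163), the outer end of Bmf (node 7, 0.709 and 0.789), the outer start of Bcl2 (node 1, 0.0823 and 0.119), a core exon of Bak1 (node 2, 0.961 and 0.934), an end of Mcl1 (node 6, 0.695 and 0.719) and a core exon of Bid (node 2, 0.996 and 0.995). None of these 6 differences passed 0.1, and the Bak1 exon lies wholly in exons of Ggnbp1. All core exons listed for Bid, Bak1, Bad, Bcl2l1, Bcl2l11 and Mcl1 had Psi values above 0.93 in both groups.

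The other members of the BCL2 family were described as a list of 16 genes. Of the 13 that passed the filter, 6 were higher and 2 lower (61.5% called, against 46.7% of all tested genes), with a median log2 fold change of 0.29. Bax, the effector beside BAK, had 124.8 to 160.9 CPM (median 142.0) in Control gRNA and 167.2 to 208.0 CPM (median 189.9) in Tardbp gRNA, without overlap, a log2 fold change of 0.42 (SE 0.057, adjusted p 8.29e-06). Bbc3, which encodes PUMA, a BH3-only protein induced by p53 and FOXO factors, had 1.38 to 2.73 CPM (median 1.83) and 3.07 to 6.45 CPM (median 4.87), also without overlap, a log2 fold change of 1.33 (SE 0.174, adjusted p 5.85e-06). Pmaip1, which encodes NOXA, a partner of MCL-1, was not called (-0.02, SE 0.070, adjusted p 0.842).

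The A1 copy Bcl2a1a had 0.29 (SE 0.095, adjusted p 0.0173). Bnip3l, a mitophagy receptor, was higher at 0.38 (SE 0.082, adjusted p 0.000810), while its relative Bnip3, known as a target of the hypoxia response, was lower at -1.11 (SE 0.289, adjusted p 0.00411). Bcl2l12 was higher at 0.29 (SE 0.057, adjusted p 0.000387) and Bcl2l13 lower at -0.42 (SE 0.067, adjusted p 4.88e-05). Bcl2l15, at no more than 72 counts in a library, had 1.58 (SE 0.501, adjusted p 0.0149). Bik, Bok, Bcl2l14 and Bcl2l2 had log2 fold changes of -0.14, 0.19, 0.12 and 0.46 and were not called. Hrk and Bcl2l10 had 0 counts in every library and Bcl2a1c no more than 10, and they were not tested.

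The genes downstream and upstream of the family were read from 3 further lists. Of 19 genes of the mitochondrial apoptosis machinery, 1 was higher and 7 were lower, with a median of -0.07. The 42.1% called is near the 46.7% of all tested genes. The one that rose was Xiap (0.39, SE 0.077, adjusted p 0.000418), an inhibitor of caspases, and the lowest was Vdac1 (-0.93, SE 0.103, adjusted p 9.80e-07), a channel of the outer mitochondrial membrane. Apaf1 and Casp9, parts of the apoptosome, were among the 7 lower ones (-0.44 and -0.36). Cycs, which encodes cytochrome c, was not called (-0.08, SE 0.061, adjusted p 0.295).

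Of 11 genes of the death receptor pathway, 5 were higher and 1 lower, from Traf1 (0.48, SE 0.060, adjusted p 3.10e-06), an adaptor of tumour necrosis factor receptors that include OX40 and 4-1BB, to Ripk1 (-0.21, SE 0.082, adjusted p 0.0464). Their median was 0.08, and the 54.5% called is near the 46.7% of all tested genes. Of 15 regulators of the family, 5 were higher and 7 lower (80.0% called, against 46.7% of all tested genes), with a median of -0.11. The highest was Foxo3 (0.95, SE 0.173, adjusted p 0.000196), which encodes a forkhead factor known to activate Bcl2l11 and Bbc3, with 0.955 to 1.75 CPM in Control gRNA and 1.91 to 3.71 CPM in Tardbp gRNA. Foxo1 was also higher (0.68, SE 0.157, adjusted p 0.00156), while Trp53, which encodes p53, was lower (-0.18, SE 0.042, adjusted p 0.00216). The lowest was Stat5b (-0.72, SE 0.075, adjusted p 5.63e-07), which encodes a mediator of interleukin 2 and 7 signals known to induce Bcl2, and Stat5a and Il7r were lower too (-0.44 and -0.51). Over the 4 lists, 34 of 58 tested genes were called, with 17 in each direction, where 46.7% of all tested genes were called, 23.5% higher and 23.3% lower. Without the 3 libraries highest in myeloid markers, 28 list genes were called.

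Because forkhead factors are known at the Bcl2l11 promoter, the promoter windows of RefSeq (GRCm38.p6, from 250 bases before to 50 after each start) were searched on both strands for GTAAACA, a core forkhead motif of 7 bases. Of 32851 windows, 1199 (3.65%) held it. Of the 16 windows of the 10 genes, 1 did, that of the outer start of Bcl2l11. It is shown with 20 bases on either side and the motif in capitals, and it ends 221 bases before the start. A match in these letters is a description and not a bound site.
Bcl2l11, chr2:128125791-128125837, plus strand: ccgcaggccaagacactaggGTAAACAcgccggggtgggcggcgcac

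How the genes varied among libraries of a group was described on log2 CPM with the group means removed, over 16 libraries that share their depth and composition. Of 45 pairs, Bcl2a1b and Bcl2a1d, the near copies, had the highest Pearson correlation (0.86), followed by Bcl2 with Bcl2l1 (0.51) and Bcl2 with Mcl1 (0.47). The lowest was between Mcl1 and Bmf (-0.78), of which Bmf rests on few counts. Among 8610 genes with a mean of at least 10 CPM, those most like Bad in this sense were Prmt2 (0.87), Myl6 (0.84) and Tmub1 (0.82). For Bcl2l11 they were Elovl6 (0.94), Baz2b (0.89) and Ccr6 (0.89), and for Bcl2 Tor3a (0.78), Myd88 (0.75) and Osm (0.75). As the highest of 8610 values over 16 libraries, such correlations can be high by chance, and they were not tested. Replicate 1 was the lowest for Bcl2l11 in both groups (8.29 and 22.1 CPM), which can weigh on its correlations.

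Whether the response differed with the letter M or F deposited for each library was asked last. The edgeR test of the interaction of letter and guide called none of the 10 genes (adjusted p at least 0.9997), with differences in log2 fold change between the letters from -0.70 for Bmf to 0.35 for Mcl1, and 7 genes were called with the letter as a covariate. The letters were not balanced between the guides, and few libraries stood behind each letter and guide. No interval of these differences was given, so that the test does not show that they are absent.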

How the data were processed

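RNA of sorted CD8+ T cells was made into 16 libraries (8 per group) with SMART-Seq v4 and Nextera XT, which do not mark strand, and sequenced as pairs of 100-base reads. Per the labels, the authors aligned reads with HISAT2 2.1.0 to mm10, used SAMtools 1.9 and estimated counts with StringTie 2.1.0. The deposited estimated counts per gene and per transcript were whole numbers, not normalized. PCR copies were counted, so that a count is not an independent molecule. Per library, a count of read pairs was deposited, as the facility gave it. The authors' Psi is a fraction per group from Whippet, whose version was not given in the sources used here. The columns with their difference and probability hold their own comparison and were not used. In each count table, 10 columns matched no sample and were not used. Lines outside GENCODE M21 (26345, with 0.0836 to 0.132% of the counts) were left out.

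Members and gene lists were chosen with earlier results of these data known, and a list is described by its counts beside all genes. Named are the 10 genes, the tested genes of the other BCL2 family, the highest and lowest called gene of each further list, the leading transcript of each gene and the node that differed most. Gpr137, Gm29094, Ggnbp1 and further list genes and nodes were named after their values were seen. Tests used R 4.3.3 with edgeR 4.0.16 (TMM, filterByExpr with minimum count 10, Benjamini-Hochberg adjusted p under 0.05, two-sided), limma 3.58.1 for transcript shares (difference over 10 percentage points as well) and DESeq2 1.42.0 as an alternative, and exact permutation tests in SciPy 1.17.1. The gene test and the transcript share test were also run on simulated data. Alternatives changed the scaling, filter, test, libraries, covariates and thresholds. Some genes of the lists are not reported here by name.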

Additional observations from a re-analysis of the deposited data

Results flagged for a closer look

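In 7 of 50 groups of 8 libraries examined, 1 library stood apart from the other 7 by Dixon's criterion, which flags about 1 in 20 groups by chance. Mcl1 was at 69.2 CPM in Control gRNA replicate 2, above the next at 50.9 CPM. Bcl2l11 was at 22.1 CPM in Tardbp gRNA replicate 1, below the next at 31.6 CPM and still above every Control gRNA library. Tardbp was at 110.4 CPM in Tardbp gRNA replicate 3, below the next at 129.8 CPM. The B cell markers summed to 571.7 CPM in Tardbp gRNA replicate 2, below the next at 675.8 CPM. Bak1-202 held 55.4% of the Bak1 count in Control gRNA replicate 7 and 100% in every other Control gRNA library. Bid-201 held 99.98% of the Bid count in Control gRNA replicate 8, above the next at 99.8%, and Bmf-201 held 81.5% of the Bmf count in the same library, below the next at 94.1%.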

How the results depend on the processing

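The count of genes called, 7 of 10, stayed between 5 and 7 under the other scalings, filters, DESeq2, the letter covariate, the block of numbers 1 to 3 against 4 to 8, numbers 4 to 8 alone and the stricter adjusted p of 0.01, and between 6 and 7 without each single library. It was 2 within numbers 1 to 3 alone, where 1696 of 16871 tested genes were called, against 7783 of 16650 in the main fit. The count was 4 with the RNA concentration as a covariate, where 2697 of 16650 tested genes were called. With a log2 fold change over 0.5 required it was also 4, where 20.2% of all genes passed. Leaving out the 3 libraries highest in myeloid markers, chosen after seeing the data, gave 6 genes, 28 of the list genes and 5 transcripts in place of 8. That gene fit called 6585 of 17152 tested genes. The list genes called ranged from 28 to 35 around 34 in the fits where they were counted. They were not counted within numbers 1 to 3, with the RNA concentration, with at least 1 CPM in 8 libraries or without single libraries. Without a minimum difference 3 transcript shares passed in place of 0. Of 46 Psi nodes, 12 passed 0.05, again with no share over all genes counted. Bcl2l1 reversed to -0.0074 within numbers 1 to 3 and spanned -0.024 to 0.043 without single libraries, and Bak1 reversed to 0.0069 within numbers 1 to 3 and 0.026 with the RNA concentration. Bcl2a1d was called with library totals (0.22, adjusted p 0.0201), where Bid was not (-0.07, adjusted p 0.287). Bmf could not be tested with at least 1 CPM in 8 libraries. The cause of these changes was not tested.

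Same-numbered libraries correlated at -0.0048 to 0.16 in their deviations, and 2 of 8 Control gRNA libraries correlated best with their own number. These values show no clear pairing by number, and whether same-numbered libraries shared a donor or a batch was not given. With a replicate block 6 genes were called, Bmf not among them (adjusted p 0.0596), with 34 list genes, 6 transcripts and 0 shares. The few counts of Bmf, Bcl2l15 and Bak1 limit their precision.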
